A study of Mus musculus with 4 samples.

Results

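The erasers and a group of readers of N6-methyladenosine (m6A) were followed in adult mouse testis. They are Fto, Alkbh5, Igf2bp1, Igf2bp2, Igf2bp3 and Hnrnpa2b1, chosen by gene symbol, 6 of the 25265 genes in the table. Each symbol matched 1 row, and all 6 passed the filter on low counts. Fto and Alkbh5 encode the m6A erasers, and the other genes encode proteins proposed to read the mark. The series compared testes of C57BL/6 males at postnatal day 56 in 2 groups, control and Ythdf2-vKO, with 2 libraries each. Its title describes the mutation as specific to germ cells. The labels give neither the meaning of the v, nor the promoter that drives the deletion, nor the genotype of the control mice, and they do not say whether each library came from its own animal. P-values therefore measure only the spread between these libraries, which may be technical.

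m6A is the most common internal modification of messenger RNA. A methyltransferase complex writes it, the iron-dependent dioxygenases FTO and ALKBH5 remove it, and reader proteins bind it. YTHDF2, the protein targeted in these mice, is a reader that promotes decay of the bound RNA, whereas the IGF2BP proteins are known for stabilising and promoting translation of theirs. HNRNPA2B1 is a nuclear RNA-binding protein linked to splicing and microRNA processing. ALKBH5 is known to be needed for normal spermatogenesis in mice. Methylation itself was not measured here, only RNA abundance.

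Total counts ran from 24862518 to 29561182 per library. Testis markers were abundant: the 8 elongating spermatid genes summed to between 8520 and 11043 CPM in each library (a gene's count relative to the TMM-scaled size of its library), and no marker gene of the 10 testis cell types listed was at 0 in any library. Ythdf2, the gene targeted, showed no lower counts in the vKO-labelled libraries. Its CPM were 51.0 and 53.5 in the controls and 66.3 and 67.0 in the vKO-labelled libraries, which is a difference on the log2 scale of 0.35 (SE 0.13, adjusted p = 0.238, edgeR quasi-likelihood test). The deleted segment is not given, so counts over the whole gene do not test the deletion, and directions below are those of the vKO-labelled libraries against control. Control replicate 2 stood apart in base composition: across 12645 genes, its deviation from the mean of the 4 libraries had a Spearman correlation of -0.475 with transcript GC content, against 0.0526 in control replicate 1 and 0.287 and 0.26 in the vKO-labelled libraries. Genes are not independent replicates, and these values only describe the libraries.

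The question put to the 6 genes was whether the erasers and these readers changed in testes labelled as Ythdf2 mutant. In edgeR's quasi-likelihood test 0 of the 6 reached an adjusted p under 0.05, and 0 of the 6 reached an unadjusted p under 0.05. Across all 21132 genes tested, 0.393% were called (0.279% higher, 59 genes, and 0.114% lower, 24 genes). An unadjusted p under 0.05 was found in 14.1% of genes (7.65% higher and 6.47% lower). The authors' deposited table gives an adjusted p for 5 of the 6 genes, and 0 of these 5 were under 0.05, against 1.32% of all genes with such a value. The split of calls depended on the scaling, with 181 higher and 37 lower by library totals alone and 78 and 60 with an offset for GC content. The median log2 fold change of the 6 genes was 0.10, with 5 positive and 1 negative, against 0.0027 over all genes tested. Without control replicate 2 this median was -0.021, with 2 of the 6 positive, and without vKO replicate 1 it was 0.035. Under scaling by library totals the median over all genes was 0.07. The groups did not overlap in 2 of the 6 genes (Igf2bp1 and Hnrnpa2b1, both with the vKO-labelled libraries above control), against 45.3% of all genes tested in either direction, 22.7% with the vKO-labelled libraries above and 22.6% with them below. By library totals alone, 5 of the 6 (all but Igf2bp3) had both vKO-labelled libraries above control, against 28.9% of all genes tested. In whole-testis RNA, fewer cells of a type and less RNA per cell cannot be told apart.

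**Figure D1:**
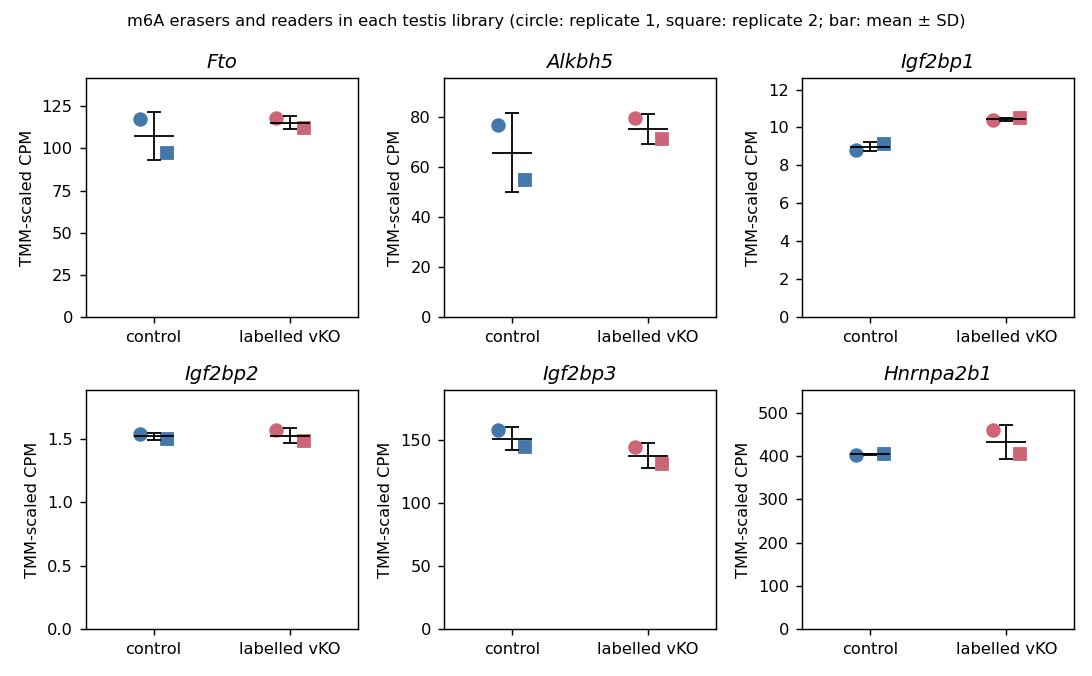
Abundance of the 6 genes in each of the 4 libraries, in TMM-scaled CPM on axes that start at 0; circles are replicate 1, squares replicate 2, and black bars the mean ± SD of 2 libraries. Control replicate 2 lies lowest for Fto and Alkbh5, the groups are apart for Igf2bp1, and the Igf2bp2 points lie between 1.48 and 1.57 CPM.

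The erasers came first. Fto (ENSMUSG00000055932) lies on the plus strand of chromosome 8, from 91313525 to 91668439 in GRCm38, and encodes a demethylase that also acts on the methylated cap-adjacent adenosine. Its counts were 2750 and 2921 in the controls and 3158 and 3033 in the vKO-labelled libraries. Scaled, these gave 118 and 97.4 CPM in the controls and 118 and 112 CPM in the vKO-labelled libraries. The groups overlapped, and the low value was that of control replicate 2. Means were 108 ± 14.3 and 115 ± 3.92 CPM (SD, n = 2 libraries a group). The difference on the log2 scale was 0.10 (SE 0.13, 95% interval -0.18 to 0.38, adjusted p = 0.798, edgeR), so the interval spanned 0.881-fold to 1.30-fold. In the authors' deposited table the log2 fold change of Fto was also 0.10 (SE 0.16), with an adjusted p of 0.896. The antisense gene 4831440D22Rik, with 18 to 49 counts per library, lies within the span of Fto on the other strand.

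Alkbh5 (ENSMUSG00000042650), on the plus strand of chromosome 11 from 60536381 to 60558512, varied most of the 6 between libraries. It had 1795 and 1639 counts in the controls and 2127 and 1916 in the vKO-labelled libraries. The scaled values were 76.8 and 54.7 CPM in the controls and 79.5 and 71.0 CPM in the vKO-labelled libraries. Control replicate 1 lay between the vKO-labelled libraries, and control replicate 2 lay below all others. Between the control libraries the ratio was 1.40, against 1.12 between those labelled vKO. The spread in control was far above counting error. Given the library sizes, the chi-square of the control counts (1 degree of freedom) was 99.9 for Alkbh5 and 50.5 for Fto. It was 0.156 for Igf2bp1, which had only 206 and 274 control counts, and chi-square grows with counts. Such spread was not particular to the erasers. Over genes with enough counts and given library totals, chi-square per degree of freedom was 21.2 between control libraries and 8.41 between vKO-labelled ones. The log2 fold change of Alkbh5 was 0.20 (SE 0.16, 95% interval -0.15 to 0.55, adjusted p = 0.645, edgeR).

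Both eraser values rested on control replicate 2. Without it the log2 fold changes were -0.029 for Fto and -0.029 for Alkbh5. Without control replicate 1 they were 0.23 and 0.45, and the edgeR adjusted p of Alkbh5 was then 0.0268, the only call of any of the 6 genes in the 13 alternatives run. In that fit 6.82% of all genes were called, against 0.393% with all 4 libraries, and 4.93% were called without control replicate 2. Each of these fits leaves 1 control library, which is assumed to vary like the others. Over all alternatives the adjusted p of Alkbh5 ran from 0.0268 to 0.985. The offset for GC content left its log2 fold change at 0.20 (adjusted p = 0.628), and the longest transcripts of Alkbh5 and Fto had GC contents of 50.0% and 48.1%. Per kb of exon, the ratio of Fto to Alkbh5 was 0.704 and 0.819 in the controls and 0.682 and 0.727 in the vKO-labelled libraries, so the balance between the erasers overlapped between the groups.

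**Figure D2:**
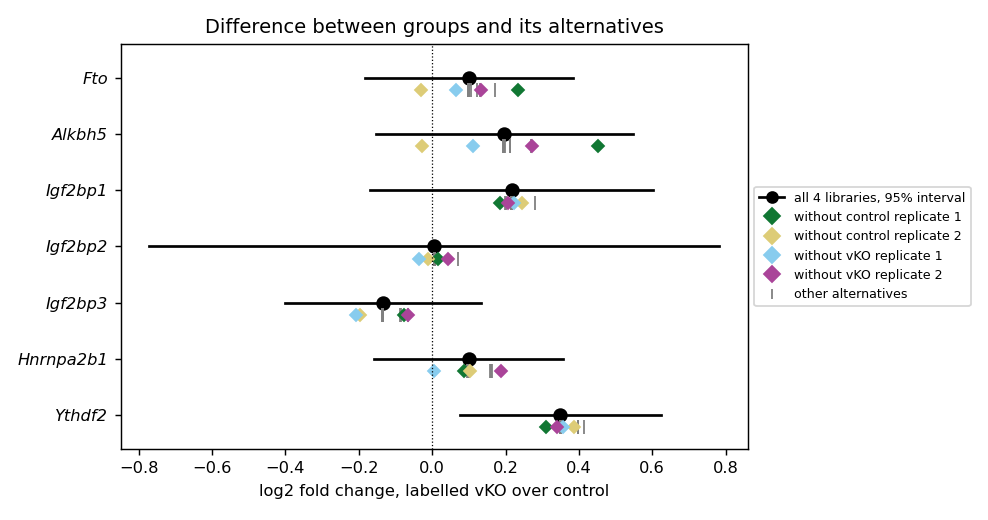
Log2 fold change of the 6 genes and of Ythdf2 (horizontal axis, vKO-labelled libraries over control), with the estimate from 4 libraries as a black point, its 95% interval as a line, each fit without 1 library as a diamond and the other alternatives as grey ticks. The intervals of all 6 genes cross 0, and the diamonds of Alkbh5 spread from -0.029 to 0.45.

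The IGF2BP readers form a family with RNA-recognition and KH domains, and its 3 members were present at very unequal levels. Compared per length, as TMM-scaled CPM per kb of merged exons, Igf2bp3 reached 17.7 ± 1.36, Igf2bp1 1.003 ± 0.0883 and Igf2bp2 0.206 ± 0.00524 (SD over 4 libraries). Igf2bp3 made up 92.6% to 94.5% of the family's length-scaled level, Igf2bp1 4.44% to 6.25% and Igf2bp2 1.02% to 1.16%. The ranges of the 3 paralogs over the libraries did not touch. No stretch of 200 nt or more at 90% identity was found between their longest transcripts, the limit used for near-identical copies.

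Because Igf2bp3 and Igf2bp2 mark the upper and lower end of the family, the 250 bases before their starts are shown, from RefSeq on GRCm38.p6, 5′ to 3′ on the minus strand that both genes use. They cover chr6:49214955-49215204 and chr16:22163300-22163549. Capitals mark matches on either strand to CACGTG (E-box), TGACGT (core of the cAMP response element), GGGCGG (GC box) and CCAAT.
Igf2bp3: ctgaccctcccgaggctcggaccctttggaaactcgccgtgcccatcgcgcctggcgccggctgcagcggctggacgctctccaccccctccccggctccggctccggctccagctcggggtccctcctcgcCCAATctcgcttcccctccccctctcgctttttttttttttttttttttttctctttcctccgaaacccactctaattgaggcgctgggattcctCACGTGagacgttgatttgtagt
Igf2bp2: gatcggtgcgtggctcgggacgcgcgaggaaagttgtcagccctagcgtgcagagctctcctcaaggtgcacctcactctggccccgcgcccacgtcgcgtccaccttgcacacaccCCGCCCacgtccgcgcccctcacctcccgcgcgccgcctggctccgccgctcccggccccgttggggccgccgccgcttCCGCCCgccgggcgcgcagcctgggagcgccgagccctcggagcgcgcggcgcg
The Igf2bp3 sequence holds 1 CACGTG and 1 CCAAT, motifs found in 6.02% and 33.8% of the 32851 promoter windows of this length. The Igf2bp2 sequence holds 2 GGGCGG matches, a motif present in 32.7% of windows. Igf2bp2, the paralog with the lower RNA level, has 40 CG dinucleotides and a GC content of 77.2%, against 21 and 60.4% for Igf2bp3. The median window has 6 CG dinucleotides. The 40 of Igf2bp2 are at or above 98.9% of windows and the 21 of Igf2bp3 at or above 85.2%, so both are rich in CG. A link to RNA level was not tested. A match describes letters and shows no binding. The table held sequences for 5 of the 6 genes, without Igf2bp1.

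**Figure D3:**
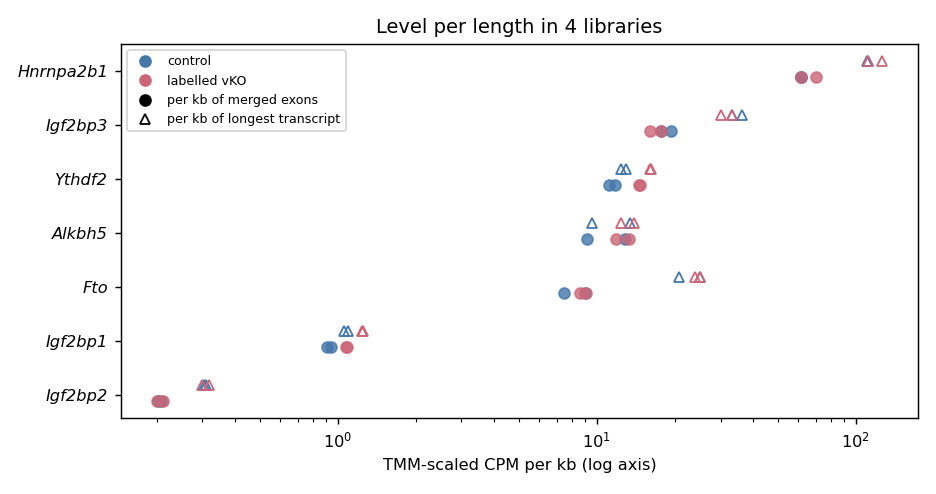
Level of each gene in the 4 libraries as TMM-scaled CPM per kb, on a log axis, with Ythdf2 for comparison; filled circles use merged exons and open triangles the longest transcript. Hnrnpa2b1 lies highest and Igf2bp2 lowest by either length, while Fto changes place with Alkbh5.

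Igf2bp3 (ENSMUSG00000029814), on chromosome 6 from 49085223 to 49214957, is best known as an oncofetal protein that is low in most adult tissues. Counts were 3695 and 4338 in the controls and 3877 and 3534 in the vKO-labelled libraries. This gave 158 and 145 CPM in the controls, and 145 and 131 CPM in the vKO-labelled libraries. Control replicate 1 was highest and vKO replicate 2 lowest, and control replicate 2 and vKO replicate 1 were nearly equal, so the groups just overlapped. Igf2bp3 was the only one of the 6 with a negative log2 fold change, -0.13 (SE 0.12, 95% interval -0.40 to 0.13, adjusted p = 0.689, edgeR). It stayed negative in all 13 alternatives, from -0.21 to -0.07. The gene's end overlaps the protein-coding gene Malsu1 on the opposite strand by 1529 bases. Malsu1 had 361 and 420 counts in the controls and 387 and 482 in the vKO-labelled libraries. The libraries were made with a directional kit, but the strand setting of the counting is not given. How reads from the shared stretch were assigned, or whether they were counted, is therefore not known.

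Igf2bp1 (ENSMUSG00000013415), on chromosome 11 (minus strand) from 95957163 to 96005940, encodes the family member first described as binding the zipcode of beta-actin mRNA. Its counts were 206 and 274 in the controls and 278 and 283 in the vKO-labelled libraries. These correspond to 8.81 and 9.14 CPM in the controls and 10.4 and 10.5 CPM in the vKO-labelled libraries. Both vKO-labelled libraries lay above both controls, and replicates differed by less than counting error (chi-square 0.156 and 0.0141). The log2 fold change was 0.22 (SE 0.18, 95% interval -0.17 to 0.60, adjusted p = 0.646, edgeR) and ran from 0.18 to 0.28 over the alternatives. At these counts the counting error of 1 library alone was 6.20%, against a difference of 1.16-fold between the group means.

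Igf2bp2 (ENSMUSG00000033581), on chromosome 16 (minus strand) from 22059009 to 22163299, is the family member most linked to metabolism. It had only 36 and 45 counts in the controls and 42 and 40 in the vKO-labelled libraries. The levels were 1.54 and 1.501 CPM in the controls and 1.57 and 1.48 CPM in the vKO-labelled libraries, with both controls inside the range of the other group. The log2 fold change was 0.0056 (SE 0.36, adjusted p = 0.996, edgeR). Its 95% interval, from 0.586-fold to 1.72-fold, was the widest of the 6, and the counting error of a library was 15.7%. Changes within that interval are compatible with these data, and the smallest detectable change was not computed. The authors' deposited table gives no adjusted p for Igf2bp2.

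Within the family, Igf2bp3 and Igf2bp1 differed in sign. The ratio of Igf2bp3 to Igf2bp1, per kb of exon, was 21.3 and 18.8 in the controls and 16.5 and 14.8 in the vKO-labelled libraries. Both vKO-labelled libraries were thus below both controls in this ratio, which was chosen after the values were seen. The ratio of Igf2bp3 to Igf2bp2 was 93.1 and 87.5 in the controls and 83.7 and 80.2 in the vKO-labelled libraries, in the same direction. Both ratios share Igf2bp3, so they are not separate observations, and the counting error of Igf2bp2 was 15.7% per library. For single genes, the groups did not overlap in 45.3% of all genes tested. With 2 libraries against 2, an exact two-sided permutation test cannot give a p below 0.33, and neither ratio was tested in a model.

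Hnrnpa2b1 (ENSMUSG00000004980) was the most abundant of the 6. Its position is chromosome 6, minus strand, 51460932 to 51469894, and 2.25 Mb separate it from Igf2bp3. Counts were 9414 and 12143 in the controls and 12318 and 10931 in the vKO-labelled libraries. The scaled values were 403 and 405 CPM in the controls and 460 and 405 CPM in the vKO-labelled libraries. Control replicates differed by less than counting error, whereas vKO replicate 1 stood above the other 3 libraries. The groups did not overlap, but the margin was 405.2 against 405.0 CPM, far inside the counting error of 0.945% per library. The log2 fold change was 0.10 (SE 0.12, 95% interval -0.16 to 0.36, adjusted p = 0.775, edgeR). Without vKO replicate 1 it was 0.0047, and without vKO replicate 2 it was 0.19. The processed pseudogenes Gm5778 and Gm43396 match 572 and 214 nt of its 3645 nt longest transcript at 94.8% and 90.2% identity. Neither pseudogene was among the 25265 genes with counts, so reads from these stretches may be uncertain.

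The sequence before the most upstream Hnrnpa2b1 start is shown for the gene at the top of the order, chr6:51469895-51470144 on the minus strand, with the same motifs in capitals.
Hnrnpa2b1: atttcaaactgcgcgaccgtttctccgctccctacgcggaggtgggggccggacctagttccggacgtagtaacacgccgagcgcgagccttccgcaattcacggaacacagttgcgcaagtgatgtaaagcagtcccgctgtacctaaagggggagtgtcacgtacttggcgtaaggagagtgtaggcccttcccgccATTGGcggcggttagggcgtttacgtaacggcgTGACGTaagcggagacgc
It holds 1 TGACGT, found in 6.47% of windows, and 1 CCAAT on the opposite strand. Its 29 CG dinucleotides are at or above 94.1% of windows. RefSeq lists another start 49 bases downstream.

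In order of level per kb of merged exons, the genes ran Hnrnpa2b1 (63.5 ± 4.24 CPM per kb), Igf2bp3, Alkbh5 (11.8 ± 1.86), Fto (8.55 ± 0.739), Igf2bp1 and Igf2bp2 (SD over 4 libraries). Among all genes tested, Hnrnpa2b1 was at percentile 94.6 of the per-kb level, Igf2bp3 at 82.2, Alkbh5 at 75.6, Fto at 70.1, Igf2bp1 at 28.1 and Igf2bp2 at 6.47. The ranges of neighbours in this order did not overlap, though Fto and Alkbh5 came close, at 7.48 to 9.05 and 9.13 to 13.3 CPM per kb. Their order depended on the length used. Fto has 13031 bases of merged exons but a longest transcript of 4707 bases, and per kb of longest transcript its level was 23.7, above Alkbh5 at 12.3. Ythdf2, at 11.2 to 14.7 CPM per kb of exon, overlapped Alkbh5.

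The transcripts also differed in how often they carry GGACT, a 5-letter form of the m6A consensus, counted on the sense strand. Other forms of the consensus were not counted. The longest transcript of Alkbh5 holds 10 matches (1.75 per kb) and that of Igf2bp1 also 10 (1.19 per kb), against a median of 1.02 per kb over the genes tested. Igf2bp2 holds 4 (0.808 per kb), Igf2bp3 2 (0.46 per kb), Fto 2 (0.425 per kb) and Hnrnpa2b1 1 (0.274 per kb). At least 1 match occurs in 85.9% of the genes tested, and a match does not show methylation.

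The 6 genes were set beside 7 lists of related genes, which hold 54 tested genes besides the 6. In the edgeR fit of all 4 libraries with genotype as its only term, 0 of these 54 had an adjusted p under 0.05. With the replicate number added as a block 1 was called (Peg10), and with the GC offset added as well there were 4 (Alkbh4, Peg10, Wtap and Ythdf2). Without control replicate 1 there were 6 (Hnrnpa0, Hnrnpab, Hnrnpd, Matr3, Peg10 and Prrc2a) and without control replicate 2 there was 1 (Alkbh4), in fits that called 6.82% and 4.93% of all genes. At an unadjusted p under 0.05 there were 3 positive and 2 negative genes, against 14.1% of all genes tested. Median log2 fold changes were 0.11 for the 11 m6A writers (9 positive), 0.07 for the 5 YTH readers (3 positive), -0.14 for the 7 other AlkB-family dioxygenases (2 positive) and 0.08 for the 10 hnRNP relatives (7 positive). They were 0.05 for the 11 IGF2BP partners and other proposed readers (7 positive), 0.10 for the 6 tested RNAs known to be bound by IGF2BP proteins (4 positive) and 0.07 for the 4 genes of primary microRNA processing (3 positive). Several of these medians rested on 1 library. Without control replicate 2 the partner median was -0.12 and the microRNA median 0.0055. Without vKO replicate 1 the medians were -0.077 for the partners, -0.06 for the bound RNAs, 0.0083 for the YTH readers and 0.013 for the microRNA genes. The AlkB-family median was -0.07 without control replicate 1. The writer median ran from 0.09 to 0.13 and the hnRNP median from 0.04 to 0.11 with 1 library left out. In the 9 alternatives that kept all 4 libraries the 7 medians kept their signs, with the YTH median between 0.07 and 0.17 and the AlkB-family median between -0.14 and -0.07.

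The gene of lowest p in each list was examined. Among the RNAs known to be bound by IGF2BP proteins it was Peg10, an imprinted gene derived from a retrotransposon. Peg10 had 29.8 and 26.8 CPM in the controls and 39.6 and 37.8 CPM in the vKO-labelled libraries, which is a difference on the log2 scale of 0.45 (SE 0.14, adjusted p = 0.175, edgeR). Both vKO-labelled libraries were above both controls. Matr3, a nuclear matrix RNA-binding protein on the partner list, had 393 and 413 CPM in the controls and 327 and 312 CPM in the vKO-labelled libraries, or -0.33 on the log2 scale (SE 0.12, adjusted p = 0.228, edgeR). Here both vKO-labelled libraries were below both controls. Groups were apart in 45.3% of all genes tested, and picking the gene of lowest p favours such separation. Without control replicate 1 the edgeR adjusted p was 0.0251 for Peg10 and 0.0179 for Matr3, with log2 fold changes of 0.52 and -0.38. Without control replicate 2 the adjusted p was 0.177 for Peg10 (0.38) and 0.112 for Matr3 (-0.29), and without vKO replicate 1 it was 0.793 and 0.846.

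Wtap, the regulatory subunit that places the m6A methyltransferase in nuclear speckles, had 16.4 and 18.7 CPM in the controls and 23.3 and 21.6 CPM in the vKO-labelled libraries (log2 fold change 0.35, SE 0.15, adjusted p = 0.325, edgeR). Alkbh4, a relative of Alkbh5, had 32.1 and 25.1 CPM in the controls and 21.3 and 23.5 CPM in the vKO-labelled libraries (log2 fold change -0.35, SE 0.16, adjusted p = 0.340, edgeR). The groups were apart in both genes, as in 45.3% of all genes tested, and both were picked for their low p. Without control replicate 2 the log2 fold change of Alkbh4 was -0.52 (adjusted p = 0.0441, edgeR), and without control replicate 1 it was -0.17. In the YTH list the lowest p was that of Ythdf2. Hnrnpl and Dgcr8 had the lowest p of the hnRNP and microRNA lists, with log2 fold changes of 0.24 and 0.21 and unadjusted p-values of 0.0758 and 0.138 (edgeR). Without a block, 0 of the list genes of lowest p passed the adjusted threshold with all 4 libraries.

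**Figure D4:**
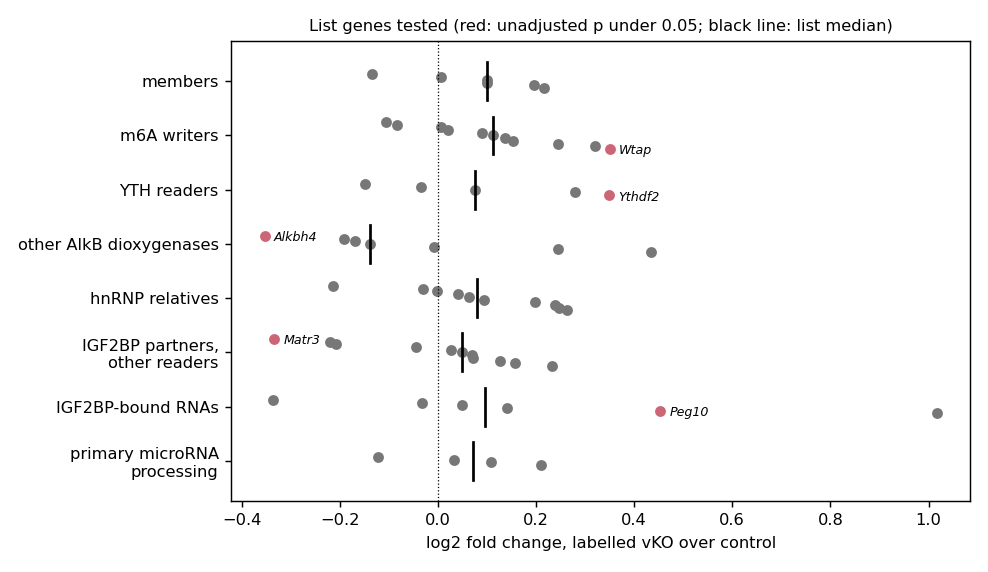
Log2 fold change of every tested gene in the 8 lists (horizontal axis, vKO-labelled libraries over control), 1 point a gene, with list medians as black lines. The 5 genes in red have an unadjusted p under 0.05 and none of them is among the 6 erasers and readers.

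For each of the 6 genes, the list gene of most similar pattern was taken as the one with the smallest root mean square difference in centred log2 CPM, over 4 libraries and 54 candidates. Fto was nearest to Ybx1 (0.0216) and Alkbh5 to Hnrnpd (0.0337), and all 4 of these genes were lowest in control replicate 2. Igf2bp1 was nearest to Dgcr8 (0.019), with both vKO-labelled libraries above control in each. Igf2bp3 was nearest to Ddx5 (0.0303), Hnrnpa2b1 to Ythdf3 (0.0186) and Igf2bp2 to Hnrnpa3 (0.028). With 4 libraries these values only describe likeness.

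Values of 10 cell type marker lists are given beside these results. Over all genes tested, 7.65% were higher and 6.47% lower at an unadjusted p under 0.05 (edgeR), and 0.393% were called. These shares are the background for every marker list below. Among the marker genes 1 was called. That gene was Wt1, a Sertoli cell transcription factor, with 31.3 and 32.8 CPM in the controls and 54.2 and 50.7 CPM in the vKO-labelled libraries (log2 fold change 0.71, adjusted p = 0.0418, edgeR). Its adjusted p was 0.338 without vKO replicate 1, 0.0824 without vKO replicate 2 and 0.0501 without robust estimation. The 10 Sertoli cell genes were all positive, 7 with an unadjusted p under 0.05, and summed to 992 and 1032 CPM in the controls and 1428 and 1252 CPM in the vKO-labelled libraries.

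Among the other somatic lists, the 4 tested erythrocyte genes were all positive, 3 with an unadjusted p under 0.05 (median log2 fold change 0.76). All 5 genes of that list, the untested one included, summed to 26.8 and 32.5 CPM in the controls and 42.2 and 39.3 CPM in the vKO-labelled libraries. The largest part was Alas2, at 17.4 and 22.9 CPM in the controls and 22.3 and 26.5 CPM in the vKO-labelled libraries. Its groups overlapped (unadjusted p = 0.133, edgeR). Of the 5 endothelial genes 4 were positive, 1 with an unadjusted p under 0.05 (median 0.43), with sums of 33.3 and 22.6 against 41.8 and 35.6 CPM. Most of each sum was Vwf, at 26.1 and 14.2 CPM in the controls and 30.8 and 23.5 CPM in the vKO-labelled libraries, and the groups of Vwf overlapped. Of the 7 Leydig cell genes 6 were positive, 3 with an unadjusted p under 0.05 (median 0.36), but their sums overlapped, at 292 and 355 against 458 and 345 CPM. The sums of the macrophage genes (5 of 6 positive) and the peritubular myoid genes (2 of 5 positive) overlapped too.

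Of the germ cell lists, the 8 elongating spermatid genes summed to 11043 and 9091 CPM in the controls and 8520 and 8736 CPM in the vKO-labelled libraries, and 7 were negative, 4 with an unadjusted p under 0.05. The 12 spermatogonia genes summed to 579.6 and 605 CPM in the controls and 577 and 554 CPM in the vKO-labelled libraries. Of the 12, 10 had a positive log2 fold change, 3 with an unadjusted p under 0.05 (edgeR). The 2 negative genes, Ddx4 and Dazl, gave most of the sums. The sums therefore mainly follow these 2 and do not show the direction of the 10 positive genes. Ddx4 had 341 and 334 CPM in the controls and 309 and 298 CPM in the vKO-labelled libraries. Dazl had 133 and 167 CPM in the controls and 140 and 142 CPM in the vKO-labelled libraries. Of the 8 spermatocyte genes 7 were negative, with overlapping sums from 1032 to 1119 CPM, and the 7 round spermatid genes also had overlapping sums (5 positive). Which testis cells the 6 genes were transcribed in is not shown by these data, and the part of these markers in their values was not tested.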

How the data were processed

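RNA of whole testis was depleted of ribosomal RNA and made into directional libraries, per the labels' protocols. HISAT2 2.1.0 and HTSeq 0.6.1p1 are named in the submitters' processing notes without roles. The genome build, the annotation and the strand setting are not given in the sources used here. Per the file headers, the deposited table holds raw read counts for each gene in each library. Per the file headers, the authors also deposited a mean normalized count (a signal), a log2 fold change, its standard error, a test statistic (a score) and p-values with adjusted p-values, under the column names of DESeq2.

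Counts were tested with edgeR 4.0.16 (limma 3.58.1, R 4.3.3): filterByExpr, TMM scaling, a robust quasi-likelihood model with genotype as its only term, a two-sided F test and Benjamini-Hochberg adjustment over all genes tested. The SE of a log2 fold change is its size divided by the square root of F, and its 95% interval uses the t quantile at the fit's degrees of freedom. Lengths, coordinates and transcript GC content came from GENCODE M21 (GRCm38), which held 25241 of the 25265 identifiers. Near-identical copies were searched with blastn 2.17.0+. Deviations used log2(CPM + 0.5). Intervals cover counting and replicate spread of 2 libraries per group, and counting errors assume independent reads. The code was tested on simulated data.

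Alternatives were DESeq2 1.42.0 size factors and Wald test, library totals, other filters (none beyond 1 count, at least 10 counts in every library), no robust estimation, a GC offset, the replicate number as a block, leaving out each library, and the longest transcript as length. Genes named are the 6 genes, Ythdf2, any called list gene, the list gene of lowest p in each list and the list gene nearest to each of the 6. The 6 genes and the lists were chosen with earlier results of these data known. Of the further genes on the related lists, 55 were in the table. Of the RNAs known to be bound by IGF2BP proteins, 7 of 10 were in it, and the other related lists were complete.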

Additional observations from a re-analysis of the deposited data

How the results depend on the processing

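None of the 6 genes was called under any of the 9 alternatives that kept all 4 libraries. Leaving out 1 library at a time gave 0 to 1 calls among them, 0 to 6 among the related list genes, 30 to 1048 genes higher and 5 to 523 lower overall. Directions of Igf2bp1, Igf2bp3 and Hnrnpa2b1 held throughout, but without vKO replicate 1 the log2 fold change of Hnrnpa2b1 was only 0.0047. With 1 library left out, log2 fold changes ran from -0.029 to 0.23 for Fto, from -0.029 to 0.45 for Alkbh5 and from -0.036 to 0.044 for Igf2bp2. All 3 were negative without control replicate 2 (-0.013 for Igf2bp2), and Igf2bp2 also without vKO replicate 1. The cause was not tested. Over all genes, 181 were higher and 37 lower with library totals alone, 137 and 80 with a DESeq2 Wald test, and 60 lower with the GC offset. Without robust estimation 15 were lower. The replicate numbers are not said to pair libraries. Libraries with the same number deviated from their group means with a correlation of 0.137 across genes. With 2 libraries a group the deviations mirror each other, so both pairs give this same value. Under the replicate block the calls were 627 higher and 390 lower, with 1 related list gene among them (Peg10). The replicate block combined with the GC offset gave 629 higher and 705 lower, with 4 list genes called (Alkbh4, Peg10, Wtap and Ythdf2). Per kb of longest transcript, 4 of the 6 genes kept their rank in the order of levels, with Fto and Alkbh5 exchanged, and the shares of Igf2bp1, Igf2bp2 and Igf2bp3 in their family were 3.36%, 0.888% and 95.8%. Depth limits Igf2bp2 most, at 36 to 45 counts per library.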
